A study of Mus musculus with 12 samples.

Results

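The genes described here are 10 regulators of the cell cycle, 7 cyclins (Ccnd2, Ccnd3, Ccne1, Ccne2, Ccna2, Ccnb1 and Ccnb2) and 3 inhibitors of cyclin-dependent kinases (Cdkn1a, Cdkn1b and Cdkn2c), chosen by symbol from the 55536 annotated genes of the count table. All 10 were found in the gene counts and in the FPKM values, and all 10 passed the filter on low counts. RNA-seq was performed on mouse OT-I CD8+ T cells, which carry a transgenic T cell receptor specific for the ovalbumin peptide SIINFEKL and came from Rag1- or Rag2-deficient donors on a C57BL/6J background. In the Ag group (5 libraries) the cells had been transferred into wild-type C57BL/6J recipients that then received the peptide with control rat IgG. In the Ag+Costim group (5 libraries) the recipients received the peptide with agonist antibodies against the costimulatory receptors CD134 (OX40, clone OX-86) and CD137 (4-1BB, clone 3H3). Transferred cells were collected from spleen and lymph nodes on day 4 according to the sample labels (the study's methods place the sort slightly earlier) and sorted as CD8+ CD45.1+ Vα2+ Vβ5+. The Naive group (2 libraries) was OT-I CD8+ T cells that were neither transferred nor stimulated, so that comparisons with it combine stimulation, transfer and host. Mice of both sexes and of a wide range of ages were used in the study, and the labels give neither the age nor the animal of a library. Ag and Ag+Costim share the transgene, the Rag deficiency, the transfer and the peptide, and the recipients kept their own T cells, which the sort was set to leave out.

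Progression through the cell cycle is driven by cyclin-dependent kinases (CDKs), each of which needs a cyclin partner. D-type cyclins with Cdk4 and Cdk6 respond to outside signals in G1, E-type cyclins with Cdk2 start DNA replication, and the A- and B-type cyclins with Cdk2 and Cdk1 carry cells through S phase, G2 and mitosis. Inhibitors of the Cip/Kip family (Cdkn1a, or p21, and Cdkn1b, or p27) and of the INK4 family (Cdkn2c, or p18) restrain these kinases. Cdkn1b keeps resting lymphocytes out of the cycle, and antigen with costimulation is the classical trigger for T cells to leave the resting state.

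The libraries held 23976932 to 49258758 counts, with Ag library 4 the least deep. Spearman correlations between replicates of a group were 0.966 to 0.984 over genes. All 7 CD8 T cell markers were detected in every library, and their summed level was 8035 to 10764 CPM (a count scaled to the size of its library) in Ag, 10805 and 11553 in Naive and 4146 to 5731 in Ag+Costim. The summed level of 6 erythroid markers was 588 to 6726 CPM in Ag, 168 and 2314 in Naive and 14.0 to 211 in Ag+Costim. The 5 B cell markers summed to 1174 to 1730 CPM in Ag, 1172 and 1192 in Naive and 556 to 1139 in Ag+Costim, while Cd4 did not exceed 2.39 CPM in any library and was at 0 in 1 Ag+Costim and 1 Naive library. The CD8, erythroid and B cell sums moved with the groups, and their part in the differences below was not tested. Levels below are CPM on library sizes scaled by TMM, and calls are at an adjusted p below 0.05 in edgeR's quasi-likelihood test (Benjamini-Hochberg over 18817 genes). The summed level of 4 Y-linked genes was 143 to 309 CPM in libraries 1 and 2 of Ag and of Ag+Costim and in Naive library 1, and at most 3.88 CPM in the other 7 libraries, so the libraries of a group did not all come from the same animal or pool. A term for these transcripts changed no call of the 10 genes. The labels do not say which libraries came from separate animals, and p-values measure the spread between these libraries, part of which may be technical.

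To see how costimulation changed the cell cycle genes of antigen-primed cells, Ag+Costim was compared with Ag. All 10 genes passed the test, with 8 higher and 2 lower after costimulation, and in all 10 the libraries of the groups did not overlap. Of all genes tested, 53.1% were called in this comparison (26.6% higher and 26.5% lower), and 39.8% did not overlap (21.3% higher and 18.5% lower). The E-, A- and B-type cyclins, Ccnd3, Cdkn1a and Cdkn2c were higher in Ag+Costim, whereas Ccnd2 and Cdkn1b were lower. The median log2 fold change was 1.16 over the 10 genes and -0.05 over all genes tested. In such bulk samples a larger share of cycling cells and more RNA in each cycling cell cannot be told apart. Between Ag and Naive, 7 of the 10 were higher and 1 (Cdkn1b) lower, and the same 8 did not overlap. Of all genes, 46.7% were called there (24.2% higher and 22.5% lower) and 56.4% did not overlap (27.2% higher and 29.2% lower). Between Ag+Costim and Naive, 8 were higher and 2 lower, and all 10 did not overlap. Of all genes, 52.3% were called there (26.9% higher and 25.4% lower) and 66.0% did not overlap (31.7% higher and 34.2% lower). These comparisons share libraries, so the values below are given side by side.

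**Figure D1:**
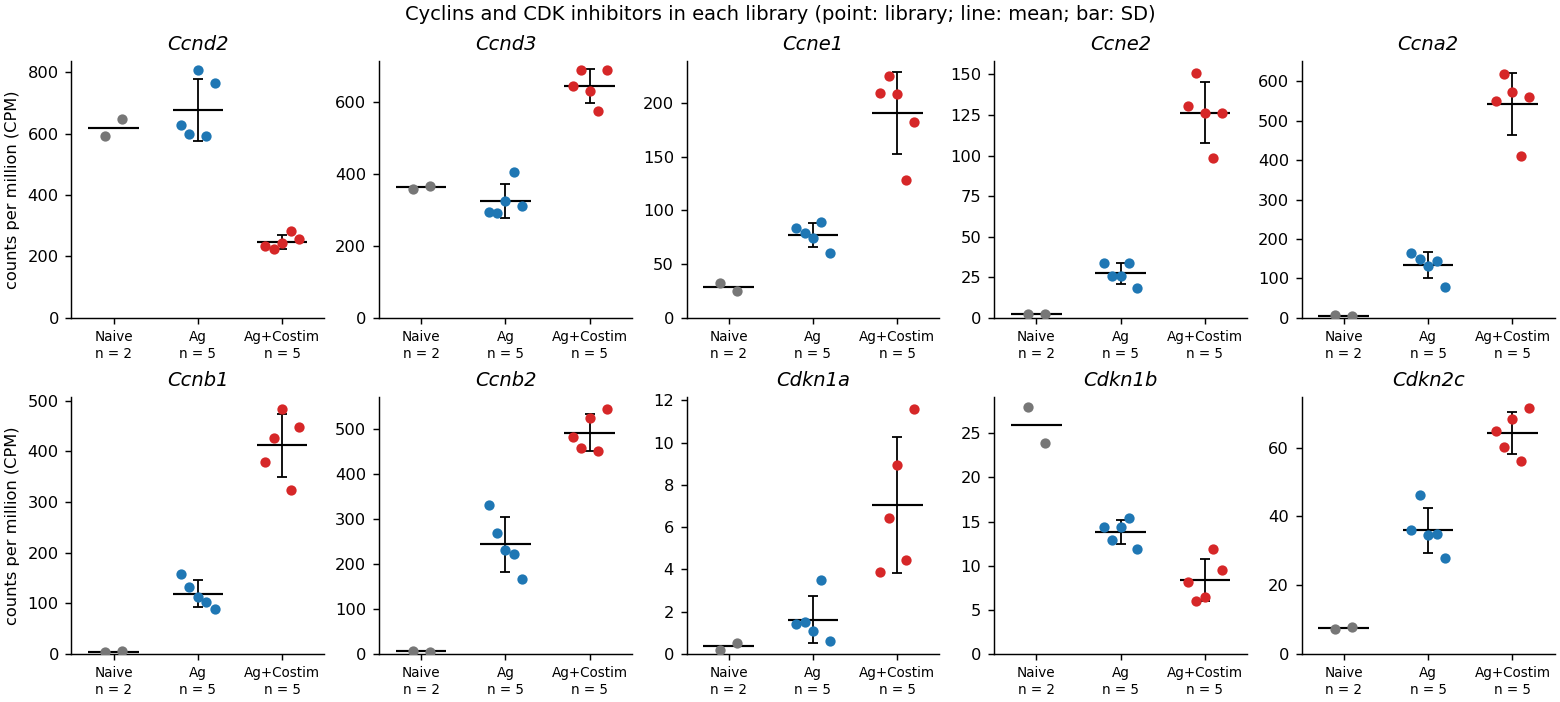
Level of each gene (CPM, linear axis from 0) in every library of the Naive, Ag and Ag+Costim groups, with points for libraries, lines for means and bars for SD in the groups of 5. Ccnd2 lies at 223 to 281 CPM in Ag+Costim, under every Ag and Naive library, while Ccnd3 lies at 573 to 688 CPM, above them all.

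The D-type cyclins moved in opposite directions. Ccnd2, the D-type cyclin induced by growth factors in lymphocytes, was at 627, 599, 807, 591 and 763 CPM in the Ag libraries, at 234, 223, 243, 281 and 255 CPM in the Ag+Costim libraries and at 592 and 647 CPM in the Naive libraries. The Ag and Naive libraries overlapped, and every Ag+Costim library was lower than all of them. The log2 fold change of Ccnd2 was -1.45 (SE 0.11, adjusted p = 1.59e-07) in Ag+Costim against Ag and -1.32 (SE 0.13, adjusted p = 2.58e-06) in Ag+Costim against Naive. It was 0.13 in Ag against Naive (95% confidence interval -0.17 to 0.43, adjusted p = 0.476), its sign changed in 3 alternatives, and with a correction for transcript length it was 0.63 with an adjusted p of 0.0162.

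Ccnd3, the D-type cyclin needed for the expansion of developing lymphocytes, was at 293, 290, 323, 405 and 309 CPM in Ag, at 644, 687, 630, 573 and 688 CPM in Ag+Costim and at 358 and 367 CPM in Naive. All 5 Ag+Costim libraries were above the others. The log2 fold change was 0.99 (SE 0.10, adjusted p = 2.02e-06) against Ag and 0.83 (SE 0.14, adjusted p = 0.000189) against Naive. On length-scaled values (log2(FPKM + 1), limma) the latter was 0.27 with an adjusted p of 0.162. Between Ag and Naive the log2 fold change of Ccnd3 was -0.16 (95% confidence interval -0.44 to 0.12, adjusted p = 0.324), and without Ag library 4 it was -0.26 with an adjusted p of 0.0350.

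Because FPKM divides by transcript length, it allows the D-type cyclins to be set against each other within a library. The ratio of Ccnd3 to Ccnd2 FPKM was 1.42 to 2.32 in Ag and 2.27 and 2.31 in Naive, against 5.87 to 9.04 in Ag+Costim. The sum of their FPKM ran from 290 to 391 over the Ag libraries and from 323 to 427 over the Ag+Costim libraries, which overlapped, and was 365 and 408 in Naive. Ccnd1, the remaining D-type cyclin, stayed at 0.280 to 1.22 CPM over the Ag and Ag+Costim libraries and was not called (log2 fold change 0.74, SE 0.45, adjusted p = 0.185).

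The E-type cyclins were lowest in Naive, higher in Ag and highest in Ag+Costim. Ccne1 was at 83.5, 79.0, 74.5, 89.2 and 60.1 CPM in Ag, at 210, 225, 209, 128 and 183 CPM in Ag+Costim and at 32.7 and 24.8 CPM in Naive. Ccne2 was at 33.7, 25.6, 26.0, 33.6 and 18.2 CPM in Ag, at 130, 151, 126.4, 98.4 and 126.4 CPM in Ag+Costim and at 2.02 and 2.27 CPM in Naive. For both genes the groups did not overlap, and Ag+Costim library 4 was the lowest of its group. In Ag+Costim against Ag the log2 fold change was 1.31 (SE 0.15, adjusted p = 8.70e-06) for Ccne1 and 2.21 (SE 0.16, adjusted p = 1.69e-07) for Ccne2. Against Naive, Ag was higher by 1.43 (SE 0.22, adjusted p = 0.000131) for Ccne1 and 3.67 (SE 0.27, adjusted p = 3.36e-07) for Ccne2 on the log2 scale. Ccne1 was the more abundant per length, with a ratio of Ccne1 to Ccne2 FPKM of 15.4 and 25.8 in Naive, 3.70 to 4.79 in Ag and 1.94 to 2.44 in Ag+Costim.

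Ccna2, the A-type cyclin of S phase and G2 in somatic cells, was at 165, 149, 131, 144 and 77.01 CPM in Ag, at 550, 620, 573, 411 and 560 CPM in Ag+Costim and at 5.66 and 4.54 CPM in Naive. On the log2 scale it differed by 2.03 (SE 0.18, adjusted p = 8.20e-07) in Ag+Costim against Ag, 4.71 (SE 0.31, adjusted p = 1.62e-07) in Ag against Naive and 6.73 (SE 0.35, adjusted p = 1.09e-08) in Ag+Costim against Naive. The last of these was the largest fold change among the 10 genes, although its interval (5.98 to 7.48) overlapped those of Ccnb1 and Ccnb2. The 3 groups were fully separated, and Ag library 5 and Ag+Costim library 4 were the lowest of their groups.

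The B-type cyclins, which activate Cdk1 at mitosis, were low in Naive cells and rose at both steps. Ccnb1 was at 158, 133, 113, 103 and 88.0 CPM in Ag, at 380, 426, 483, 323 and 449 CPM in Ag+Costim and at 2.94 and 5.06 CPM in Naive. Ccnb2 was at 330, 267, 230, 221 and 167 CPM in Ag, at 481, 457, 522, 451 and 543 CPM in Ag+Costim and at 6.69 and 3.93 CPM in Naive. Neither gene overlapped between any pair of groups. Relative to Ag, Ag+Costim was higher by 1.79 (SE 0.18, adjusted p = 1.94e-06) for Ccnb1 and by 1.01 (SE 0.17, adjusted p = 0.000201) for Ccnb2 on the log2 scale. From Naive to Ag the differences were 4.89 (SE 0.31, adjusted p = 1.26e-07) for Ccnb1 and 5.52 (SE 0.31, adjusted p = 6.27e-08) for Ccnb2. The ratio of Ccnb2 to Ccnb1 FPKM was 2.84 to 3.41 in Ag and 1.57 to 2.12 in Ag+Costim, with no overlap, and 1.17 and 3.57 in Naive. Part of the Ccnb1 signal may be shared with a processed pseudogene, Ccnb1-ps (mm10 chr7:42105899-42107185, minus strand), although their sequences were not compared. The counts of Ccnb1-ps were 7.26% to 8.23% of those of Ccnb1 in Ag and 7.43% to 7.95% in Ag+Costim. The counts of another processed copy, Ccnb2-ps, were at most 0.197% of those of Ccnb2 in Ag and up to 27.3% in Naive. Ccnb2 itself was low in Naive, and Ccnb2-ps had more counts there (51 and 65) than in Ag (3 to 19) or Ag+Costim (2 to 19).

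The promoters of the B-type cyclins are shown because these genes are classical targets of the MuvB complex, which binds the cell cycle genes homology region (CHR), and of NF-Y, which binds CCAAT boxes. Each window runs from 250 bases before to 50 bases after a start site in RefSeq (GRCm38.p6, the build of mm10), 5' to 3' on the gene's strand, with capitals on either strand for the CHR, searched as TTTGAA and as TTTAAA, for the CCAAT box, and for E2F letters, searched as TTCCCGC, further as TTCGCGC, further as TTGCCGC and lastly as TTGGCGC. The windows lie at chr13:100786437-100786736 for Ccnb1 and chr9:70421505-70421804 for Ccnb2, both on the minus strand.
Ccnb1: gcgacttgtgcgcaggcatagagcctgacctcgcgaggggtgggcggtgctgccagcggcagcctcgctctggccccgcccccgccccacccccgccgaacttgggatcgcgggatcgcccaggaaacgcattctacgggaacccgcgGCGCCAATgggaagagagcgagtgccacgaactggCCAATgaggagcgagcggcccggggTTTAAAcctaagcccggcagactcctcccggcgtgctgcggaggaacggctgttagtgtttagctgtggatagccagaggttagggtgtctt
Ccnb2: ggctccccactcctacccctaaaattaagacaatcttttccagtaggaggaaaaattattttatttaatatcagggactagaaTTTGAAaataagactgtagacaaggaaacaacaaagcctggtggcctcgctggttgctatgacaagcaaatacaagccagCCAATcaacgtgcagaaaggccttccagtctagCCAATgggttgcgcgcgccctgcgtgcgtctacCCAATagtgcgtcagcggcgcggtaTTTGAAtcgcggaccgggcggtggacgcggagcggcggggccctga
The Ccnb1 window held CCAAT at positions -99 and -67 and TTTAAA at -42, counted from the start site as 1, and an E2F match at -102 that overlaps the first CCAAT. The Ccnb2 window held CCAAT at -87, -54 and -21 and TTTGAA at -167 and 5. Among all 32817 promoter windows of this length, 27.6% held a CHR, 37.4% a CCAAT, 9.57% an E2F match and 10.7% both a CHR and a CCAAT, while 3.37% held at least 3 CCAAT. RefSeq windows were found for 7 of the 10 genes (10 windows), and not for Ccnd2, Ccne2 and Ccna2, whose promoters were not searched. Of the 10 windows, 4 held a CHR, 5 a CCAAT, 2 an E2F match and 3 both CHR and CCAAT. The third with both, beside those of the B-type cyclins, was that of Cdkn1b, which has its TTTAAA at -15 and was lower in Ag+Costim. These matches are descriptions of letters and not of binding.

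**Figure D2:**
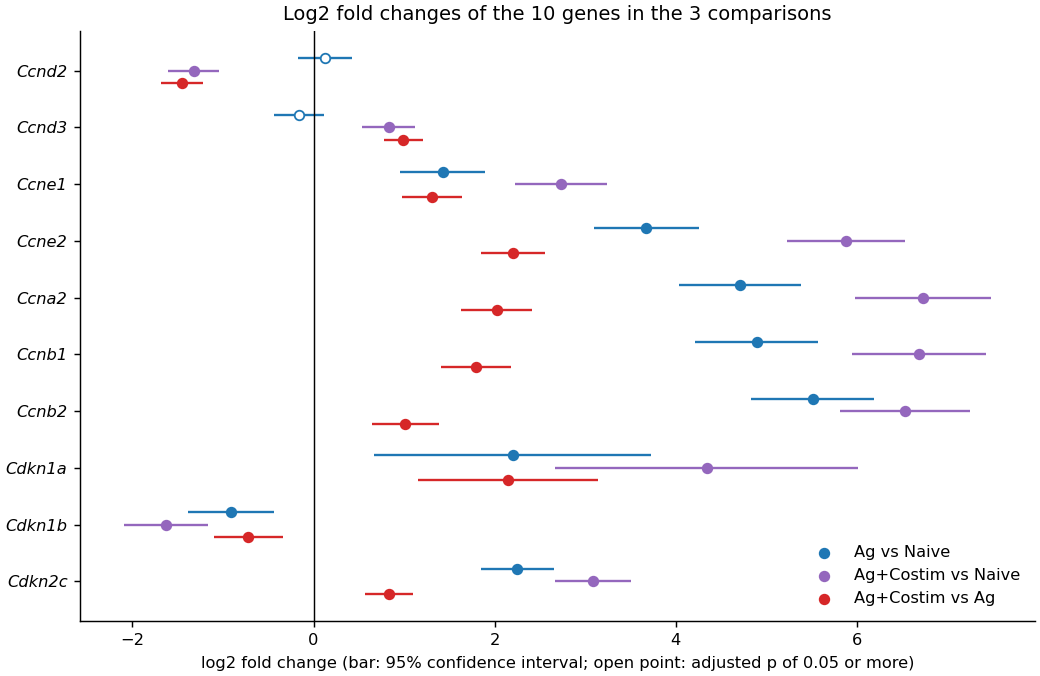
Log2 fold change of each gene in the 3 comparisons, with bars for 95% confidence intervals and open points where the adjusted p was 0.05 or more. Ccnd2 and Cdkn1b lie left of 0 in Ag+Costim against Ag, at -1.45 and -0.72, and the other 8 genes lie between 0.84 and 2.21.

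The inhibitors did not move together. Cdkn1b (p27) was at 28.01 and 23.9 CPM in Naive, at 14.4, 12.9, 14.4, 15.3 and 11.9 CPM in Ag and at 8.11, 5.99, 6.45, 11.9 and 9.48 CPM in Ag+Costim. It fell from Naive to Ag and again from Ag to Ag+Costim, and Ag+Costim library 4 came close to Ag library 5. The log2 fold change was -0.72 (SE 0.18, adjusted p = 0.00347) in Ag+Costim against Ag, -0.91 (SE 0.22, adjusted p = 0.00406) in Ag against Naive and -1.63 (SE 0.22, adjusted p = 3.38e-05) in Ag+Costim against Naive. Without Naive library 1 the difference between Ag and Naive was -0.79 with an adjusted p of 0.0540, and with a correction for transcript length it was -0.58 with an adjusted p of 0.0607.

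Cdkn1a (p21), a target of p53 that is also induced by mitogens, had few counts in all groups. It was at 1.40, 1.52, 1.07, 3.48 and 0.601 CPM in Ag, at 3.87, 6.43, 8.94, 4.42 and 11.6 CPM in Ag+Costim and at 0.165 and 0.525 CPM in Naive, which are 25 to 88, 163 to 446 and 8 and 25 counts. The lowest Ag+Costim library stood just above the highest Ag library. On the log2 scale Cdkn1a differed by 2.15 (SE 0.46, adjusted p = 0.00142) in Ag+Costim against Ag and 4.34 (SE 0.78, adjusted p = 0.000390) in Ag+Costim against Naive. The difference between Ag and Naive (2.20, SE 0.71, adjusted p = 0.0214) was not called without Naive library 1 (1.59, adjusted p = 0.186) or on log2(FPKM + 1) (0.50, adjusted p = 0.236).

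Cdkn2c (p18), an INK4 inhibitor of Cdk4 and Cdk6, was at 36.0, 46.3, 34.6, 34.8 and 27.9 CPM in Ag, at 64.8, 60.3, 68.4, 56.1 and 71.5 CPM in Ag+Costim and at 7.18 and 7.92 CPM in Naive. Like the cyclins of S phase and mitosis, it rose at both steps without overlap. The log2 fold change was 0.84 (SE 0.12, adjusted p = 6.09e-05) in Ag+Costim against Ag, 2.25 (SE 0.19, adjusted p = 8.50e-07) in Ag against Naive and 3.09 (SE 0.20, adjusted p = 4.78e-08) in Ag+Costim against Naive. The ratio of Cdkn2c to Cdkn1b FPKM was 0.576 and 0.782 in Naive, 3.16 to 4.71 in Ag and 5.64 to 13.7 in Ag+Costim.

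On the length-scaled FPKM values the order of the 10 genes changed between groups. In Naive cells the D-type cyclins led (Ccnd3 255 and 283 FPKM, Ccnd2 110 and 125), followed by Ccne1 (18.9 and 14.2) and Cdkn1b (9.92 and 9.03), and the other genes were at 7.06 FPKM or less. In Ag the order was Ccnd3 (206 ± 38.5 FPKM, SD, n = 5), Ccnb2 (156 ± 39.7), Ccnd2 (117 ± 12.1), Ccnb1 (49.8 ± 12.6), Ccna2 (44.7 ± 12.02) and Ccne1 (39.0 ± 7.03). Neighbours in that order overlapped among libraries, except for Ccnd2 and Ccnb1. In Ag+Costim, Ccnd3 (327 ± 40.0 FPKM, SD, n = 5) and Ccnb2 (306 ± 24.4) overlapped at the top, Ccna2 (176 ± 24.7) and Ccnb1 (168 ± 26.8) overlapped next, and Ccnd2 (40.6 ± 4.24) had dropped to the level of Ccne2 (41.4 ± 6.31). Cdkn2c was at 25.6 ± 2.67 FPKM in Ag+Costim, and Cdkn1a (3.58 ± 1.57) and Cdkn1b (2.60 ± 0.829) were the lowest, with overlapping libraries.

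**Figure D3:**
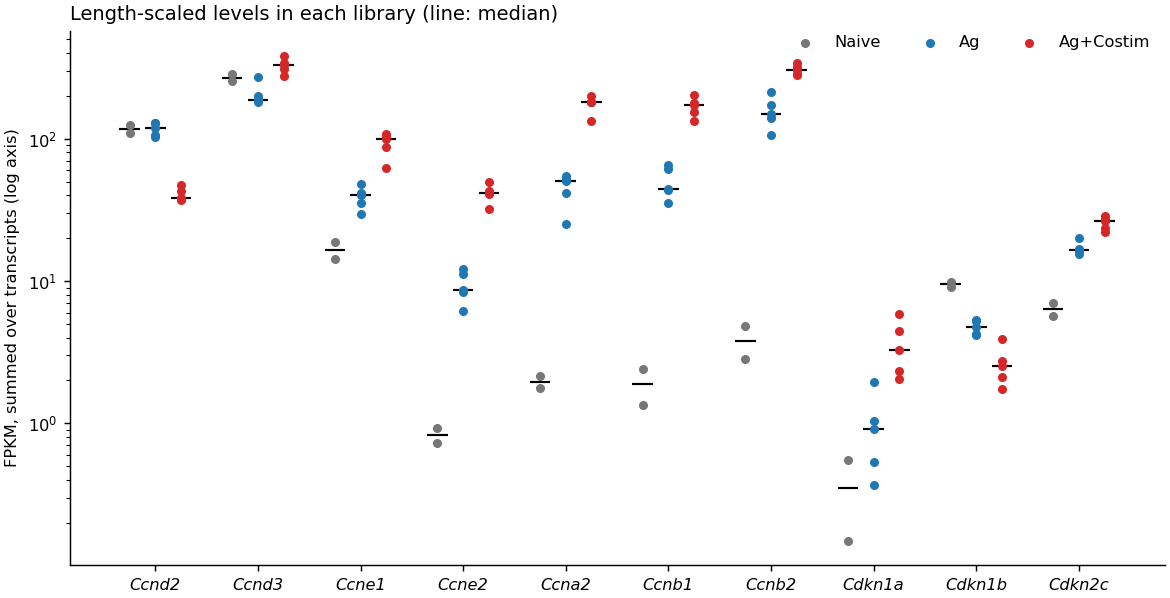
FPKM of each gene, summed over its transcripts, in every library on a log axis, with lines for group medians. The D-type cyclins are the highest in Naive, and Ccnb2, Ccna2 and Ccnb1 lie at 4.79 FPKM or less in Naive and at 132 FPKM or more in Ag+Costim.

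Transcripts were also compared, as the share of a gene's StringTie counts taken by its most abundant annotated transcript. That is the transcript with the most counts summed over all 12 libraries, which need not lead in each group. Of the 10 genes, 8 could be tested between Ag and Ag+Costim (Ccnb2 has 1 transcript, and Cdkn1a had too few counts), with an exact two-sided permutation test adjusted over the 8, for which the smallest p is 0.00794. Cdkn2c-202, which starts upstream at mm10 chr4:109667189, held 87.7%, 94.4%, 81.7%, 88.5% and 66.5% of Cdkn2c counts in Ag, 97.4%, 98.3%, 96.6%, 98.3% and 96.6% in Ag+Costim and 35.8% and 19.4% in Naive. Every Ag+Costim library was above every Ag library (exact p = 0.00794, adjusted p = 0.0423). The remainder was Cdkn2c-201, which starts 1817 bases downstream in the gene and took 64.2% and 80.6% of counts in Naive.

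Both RefSeq promoter windows of Cdkn2c, on the minus strand, are shown because the share of counts from each start differed. The upstream window (chr4:109666707-109667006) is set on a RefSeq start at 109666756, inside the span of Cdkn2c-202, and the other (chr4:109665323-109665622) is set on the start of Cdkn2c-201. Capitals are as above.
Cdkn2c upstream: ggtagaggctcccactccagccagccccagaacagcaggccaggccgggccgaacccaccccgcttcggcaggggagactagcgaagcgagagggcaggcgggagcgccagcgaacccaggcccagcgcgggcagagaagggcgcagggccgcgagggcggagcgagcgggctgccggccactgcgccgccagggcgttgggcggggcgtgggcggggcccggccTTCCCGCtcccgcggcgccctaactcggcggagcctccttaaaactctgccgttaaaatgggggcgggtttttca
Cdkn2c downstream: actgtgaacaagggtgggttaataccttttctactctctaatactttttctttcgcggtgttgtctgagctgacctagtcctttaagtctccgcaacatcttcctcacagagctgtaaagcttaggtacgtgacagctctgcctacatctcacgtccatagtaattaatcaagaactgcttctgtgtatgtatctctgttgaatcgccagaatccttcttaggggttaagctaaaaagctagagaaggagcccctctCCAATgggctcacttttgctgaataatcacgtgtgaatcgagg
The upstream window held TTCCCGC, an E2F match, at -25 and no CHR or CCAAT. The downstream window held CCAAT at 8 and no CHR or E2F match.

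Ccne2-201 took 26.1%, 13.6%, 7.81%, 0% and 15.2% of Ccne2 counts in Ag, 51.6%, 43.0%, 47.1%, 18.3% and 54.9% in Ag+Costim and 100% and 97.2% in Naive, where Ccne2 had 98 and 108 counts. In every Ag library most Ccne2 counts were thus in other transcripts of the gene. The groups Ag and Ag+Costim overlapped in Ag library 1 and Ag+Costim library 4 (exact p = 0.0159, adjusted p = 0.0423). Ccne2-201 had 0 to 401 counts per library in Ag and 775 to 2926 in Ag+Costim. Its choice as the most abundant transcript thus rested on Ag+Costim, which favours a higher share there. The p-value for Ccne2 does not account for that choice, so the difference in share is a description. Ccne1-201 took 99.0% ± 0.498 of Ccne1 counts in Ag and 99.5% ± 0.124 in Ag+Costim (SD, n = 5 each, exact p = 0.0159, adjusted p = 0.0423). For each of Cdkn2c, Ccne2 and Ccne1 the call was kept in 2 of 10 tests that left out 1 library (exact permutation, adjusted p from 0.0423 to 0.0847, with a smallest unadjusted p of 0.0159 for 4 against 5). The shares of Ccnd2-201, Ccna2-201, Ccnb1-201, Cdkn1b-201 and Ccnd3-215 were not called (adjusted p from 0.175 to 0.968). For Ccnd3 this share rests on 1 library, since Ag+Costim library 5 had 0 counts in Ccnd3-215 and 19040 in Ccnd3-202, whose starts lie 68 bases apart. The cause of this difference was not tested, and the Psi of these 68 bases is given below.

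For Ccnd3, groups of transcripts were also summed, a choice made after their values were seen, so no test is given. The 5 annotated retained-intron transcripts took 15.8%, 14.5%, 13.3%, 17.4% and 11.3% of Ccnd3 counts in Ag, 1.40%, 1.29%, 1.05%, 2.03% and 1.25% in Ag+Costim and 18.2% and 23.2% in Naive. Most of these counts were in Ccnd3-203, with 1056 to 1799 counts in Ag, 37 to 123 in Ag+Costim and 2424 and 3121 in Naive. Their counts thus dropped while the gene as a whole was higher. Transcripts from a downstream start (mm10 chr17:47593436-47593529) took 2.62%, 1.80%, 1.36%, 2.85% and 2.12% in Ag, 6.10%, 9.26%, 9.26%, 9.83% and 11.3% in Ag+Costim and 2.19% and 2.51% in Naive. For both measures the Ag and Ag+Costim libraries did not overlap.

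Both RefSeq windows of Ccnd3 (plus strand) are shown because they stand at these starts, the first at chr17:47504801-47505100 with its start at 47505051 and the second at chr17:47593217-47593516 with its start at 47593467.
Ccnd3 upstream: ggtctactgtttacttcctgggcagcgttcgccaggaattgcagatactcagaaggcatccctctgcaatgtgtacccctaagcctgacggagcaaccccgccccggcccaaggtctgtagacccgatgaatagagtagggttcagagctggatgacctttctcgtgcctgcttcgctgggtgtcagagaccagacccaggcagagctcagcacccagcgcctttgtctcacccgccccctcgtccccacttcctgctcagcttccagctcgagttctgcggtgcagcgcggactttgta
Ccnd3 downstream: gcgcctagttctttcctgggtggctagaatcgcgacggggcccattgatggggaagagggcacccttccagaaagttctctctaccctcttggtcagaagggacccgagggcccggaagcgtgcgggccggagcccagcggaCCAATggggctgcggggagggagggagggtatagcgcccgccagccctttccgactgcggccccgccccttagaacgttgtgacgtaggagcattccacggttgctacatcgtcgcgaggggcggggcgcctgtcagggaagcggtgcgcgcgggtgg
The upstream window held no match to any of the 3 sets of letters, and the downstream window held 1 CCAAT, at -108.

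**Figure D4:**
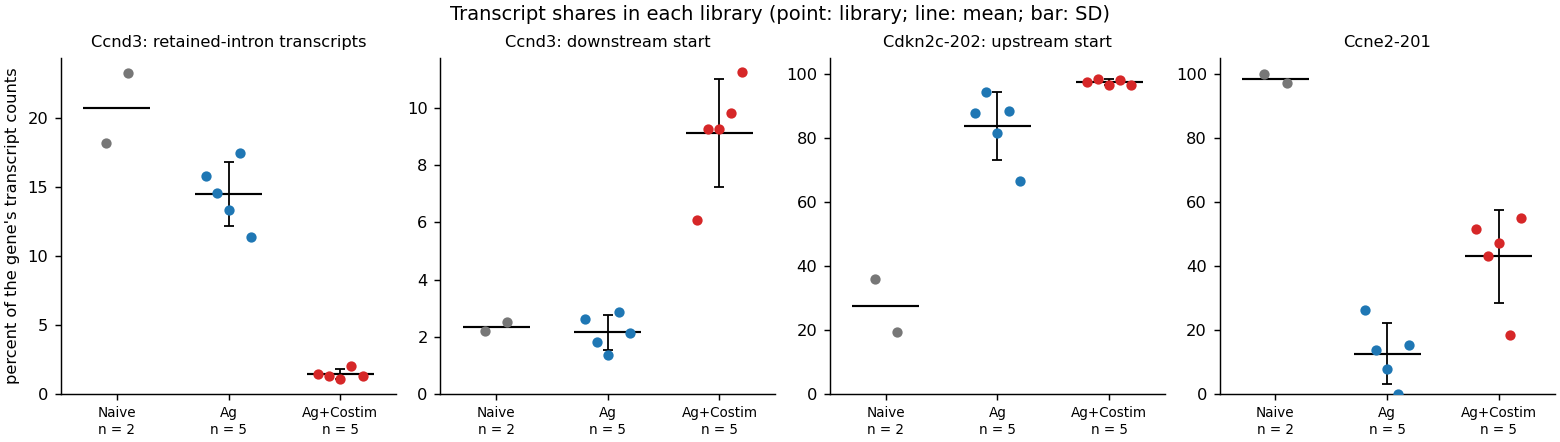
Percent of the transcript counts of a gene, in every library, for Ccnd3 retained-intron transcripts, Ccnd3 transcripts from the downstream start, Cdkn2c-202 and Ccne2-201 (points are libraries, lines means, bars SD in the groups of 5). The Ccnd3 retained-intron share is 11.3% to 17.4% in Ag and 1.05% to 2.03% in Ag+Costim, and the Cdkn2c-202 share is 66.5% to 94.4% in Ag and 96.6% to 98.3% in Ag+Costim.

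Whippet, which reports the fraction of reads that include a stretch of a gene (Psi) as 1 pooled value per group, had 92 stretches in the 10 genes, of which 9 differed by more than 0.1 between Ag and Ag+Costim. Of these, 5 were in Ccnd3, 2 in Cdkn1a (25 to 88 counts per Ag library), 1 in Ccne1 and 1 in Ccne2. The share of all Whippet stretches past this cut was not computed, so these counts are not a result about the 10 genes. In Ccnd3 the authors' Psi of the first 68 bases (chr17:47505051-47505118), used by Ccnd3-202 and not by Ccnd3-215, was 0.00814 in Ag and 0.475 in Ag+Costim. The Psi of 45 bases at the start of the third exon of Ccnd3-215 (chr17:47593609-47593653) was 0.731 in Ag and 0.994 in Ag+Costim. The 112 bases of exon 10 of 12 of Ccne1-201 (chr7:38099247-38099358) had a Psi of 0.801 in Ag and 0.962 in Ag+Costim. With 1 value per group there is no replicate check on these differences.

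The kinases and regulators around the 10 genes were taken from lists chosen by function, with earlier results of these data known. Their counts stand beside shares of all genes called of 53.1% in Ag+Costim against Ag, 46.7% in Ag against Naive and 52.3% in Ag+Costim against Naive. Of 7 genes for CDKs and the CDK-activating kinase, 4 were higher and 3 lower in Ag+Costim relative to Ag. Cdk6 (1.98, SE 0.24), Cdk1 (1.47, SE 0.20), Cdk2 (1.42, SE 0.09) and Cdk4 (0.39, SE 0.09) rose on the log2 scale, while Mnat1 (-0.82, SE 0.10), Cdk7 (-0.49, SE 0.11) and Ccnh (-0.31, SE 0.08), the 3 parts of the CDK-activating kinase, fell. Between Ag and Naive, 6 of the 7 were higher, led by Cdk1 (5.09, SE 0.36), and Cdk6 was lower (-1.20, SE 0.30), a call lost without Naive library 2. Between Ag+Costim and Naive 4 were higher and 0 lower, with Cdk1 at 6.56 (SE 0.38) and Cdk6 at 0.78 (adjusted p = 0.0579).

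All 7 CDK phosphatases, inhibitory kinases and Cks subunits were higher in Ag+Costim relative to Ag, led by Cdc25c (1.46, SE 0.15) and Cdc25a (1.43, SE 0.18), which remove inhibitory phosphates from CDKs. In Ag against Naive 5 of the 7 were higher, with Cdc25c at 5.60 (SE 0.30). Of 9 ubiquitin ligase genes, 8 were higher and 1 lower in Ag+Costim relative to Ag. Skp2, which targets p27 for degradation, was up by 1.85 (SE 0.24, adjusted p = 2.13e-05), Ambra1, which targets D-type cyclins, by 1.47 (SE 0.21), and Skp1a was at -0.52 (SE 0.14). Ambra1 had been lower in Ag than in Naive (-1.68, SE 0.26), where Ube2c, which serves the anaphase-promoting complex, was at 5.45 (SE 0.38).

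Of 10 genes for the MuvB, FoxM1, B-Myb and NF-Y factors that act on the promoters of Ccnb1, Ccnb2 and Ccna2, 7 were higher and 1 lower in Ag+Costim relative to Ag. Foxm1 (3.18, SE 0.25) and Mybl2, which encodes B-Myb (2.80, SE 0.24), were the highest, and the MuvB gene Lin37 was lower (-0.99, SE 0.09). Against Naive, 4 were higher, 1 lower and 5 not called in Ag, with Mybl2 at 3.36 (SE 0.38) and Lin54 at -0.62 (SE 0.13). These counts are near the share of all genes called there (46.7%). All 11 proliferation genes were higher in each of the 3 comparisons. Among them Bub1 (3.16, SE 0.25), Mcm2 (2.38, SE 0.14) and Mki67 (1.82, SE 0.22) rose from Ag to Ag+Costim, and the median of the 11 was 2.07 in that comparison and 4.36 in Ag against Naive. Among the other cell cycle cyclins Ccnf was higher in Ag+Costim (2.41, SE 0.18), and Ccna1 and Ccnb3 had 0 counts in every library.

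FoxO factors activate Cdkn1b in resting cells. Of 5 genes in a list of FoxO and antiproliferative genes, 3 were lower and 1 higher in Ag+Costim relative to Ag, with Btg1 at -2.69 (SE 0.23), Foxo1 at -2.05 (SE 0.11) and Tob1 at 0.47 (SE 0.18), a call lost in 13 of 23 alternatives. Between Ag and Naive, Foxo1 was higher (0.50, SE 0.14) and Tob1 lower (-1.14, SE 0.23), and 3 were not called. The number called higher there went to 0 or 2 in 5 alternatives (0 without Naive library 2 and 2 without Ag library 4), and the number called lower to 2 in 5 (among them without Ag library 4 and without Ag+Costim library 2). Of 10 tested genes of the p53 list, to which Cdkn1a is related as a target, 4 were higher and 2 lower in Ag+Costim relative to Ag. That is near the share of all genes called there (53.1%). Phlda3 (2.48, SE 0.24) and Sesn2 (1.45, SE 0.17) rose, Btg2 (-1.37, SE 0.14) and Trp53inp1 (-0.51, SE 0.15) fell, and Trp53 itself was at 0.14 (adjusted p = 0.237). In Ag against Naive, 1 was higher (Ccng1, 0.55, SE 0.11) and 4 lower (2 without either Naive library), with Bbc3 at -3.26 (SE 0.22). For the FoxO and p53 lists the counts in Ag against Naive are near the share of all genes called there (46.7%).

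The other CDK inhibitors did not follow a common direction, with 2 of 5 higher and 1 lower in Ag+Costim relative to Ag, where 53.1% of all genes were called. The number called higher was 1 in 3 alternatives. Cdkn3 was higher (0.59, SE 0.16) and the INK4 gene Cdkn2d lower (-0.71, SE 0.12), in contrast to Cdkn2c. Cdkn2a, which encodes p16 and p19Arf, had 0 counts in every Ag and Naive library and 26, 13, 11, 3 and 12 counts in the Ag+Costim libraries. Against a floor of 3 counts per Ag library its mean CPM was at least 3.73-fold higher, and its library with 3 counts is at that floor. The 6 transcriptional cyclins, known mainly for work with RNA polymerase II, were split, with 3 higher and 3 lower. Ccnk was at 1.08 (SE 0.20), Ccnc at 0.69 (SE 0.10), Ccnt2 at -0.77 (SE 0.09) and Ccnl1 at -0.68 (SE 0.08).

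**Figure D5:**
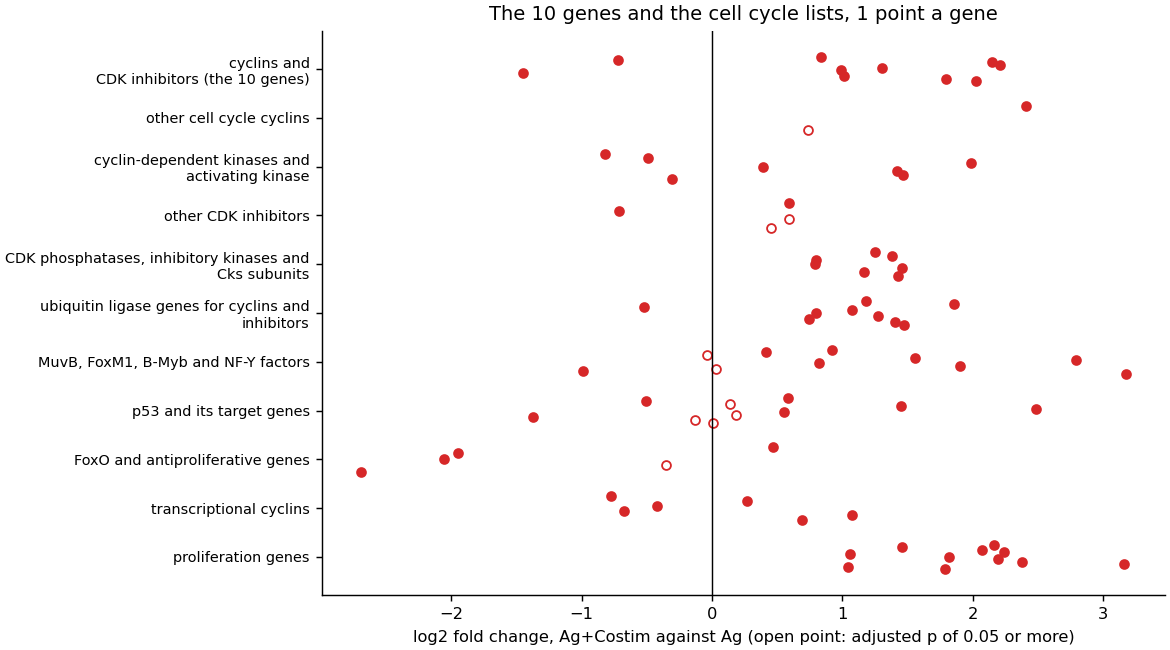
Log2 fold change in Ag+Costim against Ag for the 10 genes and for each gene of the cell cycle lists (1 point a gene, open where the adjusted p was 0.05 or more, without Cdkn2a, which had 0 counts in every Ag library). All 11 proliferation genes and all 7 CDK phosphatases, inhibitory kinases and Cks subunits lie right of 0, and the 6 transcriptional cyclins lie on both sides.

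As a description, the genes whose log2 CPM was most like each of the 10 over the 12 libraries were named, with Pearson's r (these points share the group structure and so carry no test). Ccna2 was most like Rrm2 (r = 0.999) and Sgo1 (r = 0.999), Ccne2 like Dtl (r = 0.999) and Top2a (r = 0.999), Ccnb1 like its pseudogene Ccnb1-ps (r = 0.999) and Parpbp (r = 0.998), and Ccnb2 like Cdca3 and Knstrn (r = 0.998 each). Cdkn2c was most like Cep55 (r = 0.996) and Shcbp1 (r = 0.995), and Ccne1 like Nt5dc2 (r = 0.997) and Tpi1 (r = 0.996). Ccnd3 was most like Wdr5 and Smpd4 (r = 0.993 each), Ccnd2 like Msrb2 (r = 0.989) and Gm15427 (r = 0.987), Cdkn1b like Klhl24 and Parp6 (r = 0.974 each) and Cdkn1a like Arhgef39 (r = 0.973) and Gm6637 (r = 0.971). Several of the genes named for the S-phase and mitotic cyclins and Cdkn2c, such as Rrm2, Top2a and Cep55, act in DNA replication or cell division.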

How the data were processed

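RNA was sequenced from 12 libraries (5 Ag, 5 Ag+Costim, 2 Naive) with single-end reads after SMART-Seq amplification, a kit that does not mark strand. The authors aligned reads to mm10 and made the deposited counts per gene and per transcript with StringTie. The submitters' processing notes name HISAT2 2.1.0, SAMtools 1.9, StringTie 2.1.0, R 4.0.5 and DESeq2 1.30.1. The counts are unnormalized whole numbers. The deposited FPKM values, also from StringTie, have 1 row per transcript and were summed per gene name. The deposited Psi values are the authors' Whippet fraction of reads that include a node, 1 pooled value per group. The deposited sequencing sheet gives total reads and percent aligned (72.3 to 76.5). The authors' columns for the Psi difference, its probability and the entropy were not used.

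Genes were tested with edgeR 4.0.16 in R 4.3.3 (TMM scaling, filterByExpr, robust quasi-likelihood fit, 1 term per group over all 12 libraries), with Benjamini-Hochberg adjustment over 18817 genes, and the steps were tested on simulated data. FPKM were tested with limma 3.58.1 and counts also with DESeq2 1.42.0 as alternatives. Shares of transcripts were compared with an exact two-sided permutation test where a gene had at least 100 counts in each Ag and Ag+Costim library. The floor of 3 counts was 0.0609 to 0.125 CPM and was meant for counting error only. Ag library 1 had 45951519 counts from 44171082 reads (74.54% aligned), and Ag library 4 had 23976932 from 24714617 (75.07% aligned). A count is therefore not 1 read, and the floor may not cover all counting error. Other alternatives were other scalings, filters, groups in the fit, a replicate block, a term for Y-linked transcripts, a correction for transcript length and leaving out each library. No annotated gene on the same strand overlaps any of the 10 genes, but genes on the opposite strand overlap 5 of them (Ccnd2, Ccnd3, Ccne2, Ccna2 and Cdkn1a), whose reads cannot be told apart without strand.

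Beside the 10 genes, the text names, from each list, the called genes with the largest rise and fall (2 per direction in Ag+Costim against Ag), a set of genes whatever their value (Ccnd1, Cdk1, Cdk2, Cdk4, Cdk6, Skp2, Foxm1 and Mki67) and the 2 genes most correlated with each of the 10 among genes with a mean log2 CPM above 3. Trp53 and Ccnh were added after their values were seen. The members and lists were chosen with earlier results of these data known. Libraries with the same replicate number had deviations correlated at r from 0.0159 to 0.0951, all under 0.1, so the numbers were not taken as pairs, although 3 of 5 numbers matched their own number best and libraries 1 and 2 of both Ag and Ag+Costim, unlike 3 to 5, held Y-linked transcripts at high levels.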

Additional observations from a re-analysis of the deposited data

Results flagged for a closer look

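Within groups of 5 libraries, 40 sets of values were checked for a library that stood far from the others, and 4 had one, where chance gives about 1 in 20. Ag library 4 was the least deep and had the highest sums of erythroid (6726 CPM, other Ag libraries 588 to 2649), myeloid (168 CPM) and megakaryocyte (14.0 CPM) markers among the 12 libraries, and the part of these in the values below was not tested. It was the highest Ag library for Ccnd3 (405 CPM) and the lowest for the share of Ccne1-201 (98.1% of Ccne1 counts) and of Ccna2-201 (96.7% of Ccna2 counts). Ag+Costim library 5 was the lowest of its group for the share of Ccnd3-215, at 0% of Ccnd3 counts, while its share from the downstream Ccnd3 start, 11.3%, was the highest.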

How the results depend on the processing

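In Ag+Costim against Ag, all 230 values (10 genes under 23 alternatives, 12 of them leaving out 1 library) kept their direction and call. In Ag against Naive 218 of 230 did so, and in Ag+Costim against Naive 228 of 230. With the replicate block, Ag against Naive gave -0.0039 for Ccnd2 and 1.99 for Cdkn1a (edgeR adjusted p = 0.0811), and the block changed no other call of the 10 genes. The correction for transcript length gave 0.63 for Ccnd2 (edgeR adjusted p = 0.0162), 0.042 for Ccnd3 and -0.58 for Cdkn1b (edgeR adjusted p = 0.0607) in Ag against Naive, so that 0 of the 10 were called lower. On log2(FPKM + 1) Ag against Naive gave -0.0094 for Ccnd2 and 0.50 for Cdkn1a, and on log2(FPKM + 0.1) -0.0095 and 1.202, while Ccnd3 in Ag+Costim against Naive was at 0.27 and 0.28. The cause of these changes was not tested. Leaving out libraries gave, in Ag against Naive, -0.26 (without Ag library 4) to -0.12 for Ccnd3, 1.59 (without Naive library 1) to 3.25 for Cdkn1a and -1.02 to -0.79 (without Naive library 1) for Cdkn1b, with 0 (without Naive library 1) to 2 (without Ag library 4) genes called lower. The shares of the most abundant transcripts, Ag+Costim minus Ag, ranged without 1 library from -0.233 to 0.112 percentage points for Ccnd2, -9.32 to 12.2 (without Ag+Costim library 5) for Ccnd3, 0.307 to 0.622 for Ccne1, 27.3 to 36.6 for Ccne2, -0.739 to 0.111 for Ccna2, -5.24 to 1.04 for Ccnb1 and 9.37 to 16.3 for Cdkn2c. With 4 against 5 libraries the smallest exact permutation p is 0.0159, and the calls of Ccne1, Ccne2 and Cdkn2c (exact permutation, adjusted p from 0.0423 to 0.0847) held in 2 of 10 such tests each. Upper-quartile scaling moved the median of all genes from -0.05 to -0.24 in Ag+Costim against Ag. The number of other CDK inhibitors called higher in Ag+Costim was 1 in 3 alternatives relative to Ag and in 4 relative to Naive. For the lists, 48 counts moved by more than 1.5 times. Tob1 was not called in 13 of 23 alternatives in Ag+Costim against Ag (0 higher in its list), and in Ag against Naive Cdk6 was not called without Naive library 2, the FoxO list had 0 to 2 higher and 1 to 2 lower, and the p53 list had 2 lower without either Naive library and 7 lower on FPKM. Shares by transcript FPKM were not run, since those rows carry no transcript names. Depth limits Cdkn1a, with 8 and 25 counts in Naive, and Cdkn2a.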
